A study of Mus musculus with 8 samples.

Results

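A set of 10 genes of microglia and of the first step of the complement cascade was followed in mouse cortex by the annotated symbols of the array's probe sets, and all 10 were present: C1qa, C1qb, C1qc, Csf1r, Cx3cr1, Ctss, Tyrobp, Fcer1g, Aif1 and Cd68. They were represented by 14 of the 12422 probe sets, which name 8251 genes in all. Of these, 9 probe sets of 8 genes were bright enough on average to be tested, against 7453 probe sets of 5690 genes over the whole array. Both probe sets of Fcer1g, that of Aif1 and the second ones of C1qb and Cd68 lay below this limit and carry values only.

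Cortex of 8 individual male mice was measured, 1 Affymetrix array per mouse, with 2 S1/2-/- and 2 WT mice at ZT16 and 2 of each genotype at ZT4. ZT counts the hours since lights on in a cycle of 12 h light and 12 h dark, so ZT16 falls in the dark and ZT4 in the light. The S1/2-/- mice lack SHARP1 (Bhlhe41) and SHARP2 (Bhlhe40), a pair of basic helix-loop-helix repressors of the circadian clock, in all cells, and the WT mice came from the same breeding. All mice were 4 months old and of the C57/bl6 strain. Arrays of 1 group correlated with each other at 0.955 to 0.965 across the tested probe sets, and the median signals of the 8 arrays ran between 186 and 206. The Bhlhe40 probe set gave 1043 and 889 in S1/2-/- against 1189 and 1285 in WT mice at ZT16, and 913 and 834 in S1/2-/- against 1074 and 983 in WT mice at ZT4. The sources used here do not place this probe set inside or outside the deletion, so it does not check the labels.

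Microglia are the resident macrophages of the brain. They depend on signalling through the Csf1 receptor, sense neurons through the fractalkine receptor Cx3cr1, and are the main source of complement C1q in the healthy brain. C1q is assembled from A, B and C chains and opens the classical complement pathway, which tags synapses and debris for removal by phagocytes. Tyrobp (DAP12) and Fcer1g are adaptors that carry an ITAM, the motif that passes signals of many myeloid receptors into the cell. Cathepsin S (Ctss) and Cd68 belong to the lysosome of these cells, and Aif1 encodes Iba1, the protein by which microglia are usually stained. Macrophages at the borders of the brain and blood monocytes express most of these genes too.

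The 3 C1q genes lie next to each other on chromosome 4 in the order C1qb, C1qc, C1qa, with no annotated gene between them (RefSeq, GRCm38.p6). Promoters, taken as 250 bases before to 50 bases after the start site, were available here for 7 of the 10 genes. They were read for the core of the site of PU.1, the factor that directs myeloid gene expression, and for the E-box that SHARP proteins and the clock activators are known to bind. The PU.1 core, GAGGAA on either strand (TTCCTC on the other), occurred in 5 of the 7 promoters and in 28.3% of the 32851 promoters of the table. The E-box CACGTG, which reads the same on both strands, occurred in 0 of the 7 and in 7.15% of all promoters. These matches describe letters in a window and show no binding. The promoters of C1qb (chr4:136886151-136886450, minus strand), its neighbour C1qc (chr4:136892865-136893164, minus strand) and Ctss (chr3:95526536-95526835, plus strand) are shown. This is because C1qc and Ctss had the lowest p for the genotypes averaged over both times among the tested genes. Capitals mark the PU.1 core.
C1qb: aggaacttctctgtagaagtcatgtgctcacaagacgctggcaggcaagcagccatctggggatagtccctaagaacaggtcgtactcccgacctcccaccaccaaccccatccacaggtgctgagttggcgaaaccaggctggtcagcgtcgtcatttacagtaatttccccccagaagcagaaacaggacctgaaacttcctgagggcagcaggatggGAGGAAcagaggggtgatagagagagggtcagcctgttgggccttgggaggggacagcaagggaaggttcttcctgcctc
C1qc: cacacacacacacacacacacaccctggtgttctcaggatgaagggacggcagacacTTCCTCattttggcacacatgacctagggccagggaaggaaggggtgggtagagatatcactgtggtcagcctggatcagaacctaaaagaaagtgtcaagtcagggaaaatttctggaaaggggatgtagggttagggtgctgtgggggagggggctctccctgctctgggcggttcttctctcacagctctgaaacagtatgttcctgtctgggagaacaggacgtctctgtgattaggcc
Ctss: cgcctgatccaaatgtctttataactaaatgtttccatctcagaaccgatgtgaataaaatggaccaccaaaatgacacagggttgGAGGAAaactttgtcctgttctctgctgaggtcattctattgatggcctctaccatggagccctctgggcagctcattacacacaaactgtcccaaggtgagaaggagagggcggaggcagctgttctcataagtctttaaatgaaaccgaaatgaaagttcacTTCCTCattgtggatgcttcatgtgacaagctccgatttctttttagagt
The core began 30 bases before the start site in C1qb and 193 bases before it in C1qc. In Ctss it began 164 bases before the start site and again at the start site itself.

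None of the 8 tested genes passed the test in any of the 7 comparisons between genotypes and times, and their differences were small. Aif1, below the limit for testing, was read in a fit of all probe sets. It stood in S1/2-/- at 0.337 times WT at ZT4 (limma adjusted p = 0.633). At ZT16 it stood at 1.04 times WT (limma adjusted p = 0.987). Averaged over both times, 6 of the 8 tested genes had a higher mean in S1/2-/- than in WT cortex, led by C1qc (1.23-fold), Cx3cr1 (1.22-fold), Tyrobp (1.19-fold) and Ctss (1.16-fold), while Csf1r and Cd68 were a little lower. The median over the 8 genes was 0.20 on the log2 scale, against 0.0018 over all tested probe sets, of which 50.4% were higher. A call needed a change beyond 1.5-fold and, in limma, a p under 0.05 after Benjamini-Hochberg adjustment. In this comparison 0.255% of the tested probe sets met both limits, and 0 of the 9 here. In whole cortex, a difference in the number of microglia and one in the RNA per microglial cell cannot be told apart.

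Among the C1q chains, C1qa gave signals of 1413 and 1496 in S1/2-/- against 1211 and 1401 in WT mice at ZT16, and 1482 and 1429 in S1/2-/- against 1272 and 1449 in WT mice at ZT4. The 4 S1/2-/- mice lay close together, and all WT mice but the second of ZT4 were lower than all of them. C1qb gave 953 and 833 in S1/2-/- against 678 and 984 in WT mice at ZT16, and 949 and 965 in S1/2-/- against 806 and 820 in WT mice at ZT4. At ZT4 both S1/2-/- mice were above both WT mice, whereas at ZT16 the WT mice enclosed the S1/2-/- mice.

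C1qc gave 1644 and 1164 in S1/2-/- against 1166 and 1087 in WT mice at ZT16, and 1386 and 1532 in S1/2-/- against 1084 and 1309 in WT mice at ZT4. At ZT4 the genotypes did not overlap, and at ZT16 the second S1/2-/- mouse lay level with the first WT mouse. The average difference of C1qc was 0.29 on the log2 scale (SE 0.12, 95% interval 0.02 to 0.56, limma, unadjusted p = 0.0362, adjusted p = 0.366). The averages were 0.18 for C1qb (SE 0.13, limma adjusted p = 0.590) and 0.13 for C1qa (SE 0.09, limma adjusted p = 0.585), and 95% intervals of all 3 chains lay within 1.5-fold in either direction.

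Ctss, the lysosomal protease that also trims the invariant chain of MHC class II, gave 2454 and 2765 in S1/2-/- against 2171 and 2493 in WT mice at ZT16. At ZT4 it gave 2263 and 2455 in S1/2-/- against 1812 and 2132 in WT mice. The S1/2-/- mice had the higher mean at both times, with no overlap at ZT4 and with the second WT mouse between the S1/2-/- mice at ZT16. The average difference was 0.21 (SE 0.09, 95% interval 0.02 to 0.41, limma, unadjusted p = 0.0374, adjusted p = 0.371). C1qc and Ctss were thus the 2 of 9 probe sets with an unadjusted p under 0.05 here, a limit that 12.4% of all tested probe sets passed, 6.44% with a higher mean in S1/2-/- mice. This count was 0 with median centring of the arrays, 0 without the first WT or the second S1/2-/- mouse of ZT4, and 4 without the second WT mouse of ZT4.

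The receptors Csf1r (brighter probe set) and Cx3cr1 had average differences of opposite sign, with 95% intervals that both included 0. Csf1r, the receptor for Csf1 and interleukin 34, gave 1408 and 1401 in S1/2-/- against 1553 and 1778 in WT mice at ZT16, and 1350 and 1498 in S1/2-/- against 1258 and 1399 in WT mice at ZT4. It was lower in both S1/2-/- mice at ZT16 and overlapped between the genotypes at ZT4. The difference was -0.24 at ZT16 (SE 0.12, limma adjusted p = 0.498) and -0.07 on average (SE 0.09, 95% interval -0.27 to 0.12, limma adjusted p = 0.775). The second Csf1r probe set was far noisier, with 109 and 194 in S1/2-/- against 203 and 75.9 in WT mice at ZT16 and 171 and 160 in S1/2-/- against 160 and 114 in WT mice at ZT4. Its average was 0.26 with a 95% interval of -0.53 to 1.06, so the 2 probe sets of Csf1r had opposite signs and the second was -0.09 without the second WT mouse of ZT16.

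Cx3cr1 gave 495 and 459 in S1/2-/- against 312 and 353 in WT mice at ZT16, where the genotypes did not overlap (difference 0.52, SE 0.29, limma adjusted p = 0.542). At ZT4 it gave 323 and 395 in S1/2-/- against 243 and 487 in WT mice, and the WT mice enclosed the S1/2-/- mice. Its average difference was 0.29 (95% interval -0.18 to 0.75, limma adjusted p = 0.607). Without the first WT mouse of ZT4 the average was 0.04, and without the second WT mouse of ZT4 it was 0.54.

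Tyrobp gave 493 and 514 in S1/2-/- against 426 and 561 in WT mice at ZT16, and 581 and 495 in S1/2-/- against 314 and 490 in WT mice at ZT4. The first WT mouse of ZT4 was the lowest of the 8 and the others overlapped. The difference was 0.45 at ZT4 (SE 0.23, limma adjusted p = 0.732) and 0.25 on average (SE 0.17, limma adjusted p = 0.571). Without that mouse the average was 0.09. Cd68, a membrane protein of late endosomes and lysosomes, gave 218 and 326 in S1/2-/- against 254 and 323 in WT mice at ZT16, and 301 and 310 in S1/2-/- against 310 and 344 in WT mice at ZT4. Its average was -0.10 (SE 0.18, limma adjusted p = 0.860), and 0.05 without the first S1/2-/- mouse of ZT16.

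**Figure D1:**
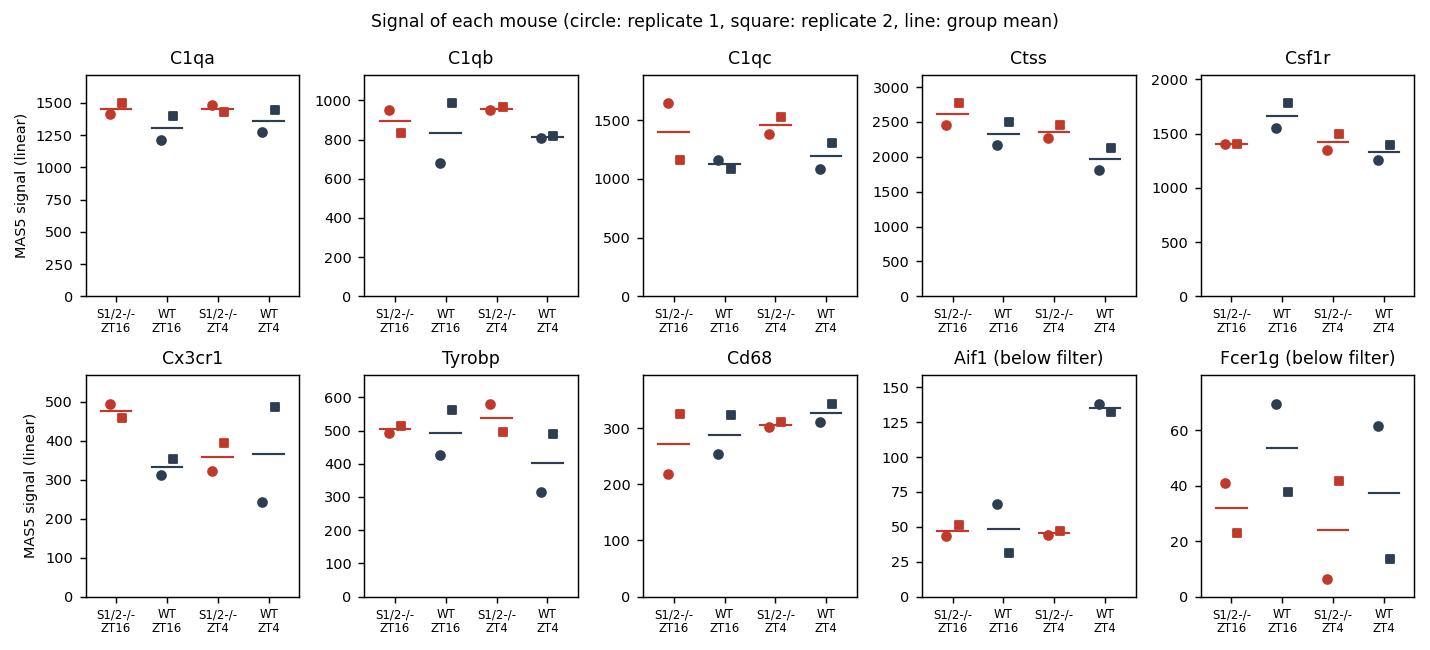
Deposited MAS5 signal (linear axis from 0, a scale of its own for each gene) of 1 probe set per gene in each mouse, with S1/2-/- mice in red and WT mice in dark blue, a circle for replicate 1, a square for replicate 2 and a line at the group mean. Aif1 stands at 138 and 132 in the WT mice of ZT4 and below 70 in the other 6 mice, and in none of the 8 tested genes do all 4 S1/2-/- mice lie apart from all 4 WT mice.

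Of the dim probe sets, Aif1 gave 43.4 and 51.1 in S1/2-/- against 66.3 and 31.1 in WT mice at ZT16, and 44.5 and 46.7 in S1/2-/- against 138 and 132 in WT mice at ZT4. The WT mice of ZT4 stood above the other 6 mice, and above the filter at a signal of 111. In a fit of all probe sets without the filter the ZT4 difference was -1.57 (SE 0.56, limma adjusted p = 0.633), so this value did not pass the test either. Within WT, ZT16 against ZT4 gave -1.57 (SE 0.56, limma adjusted p = 0.684). The first Fcer1g probe set ran between 6.31 and 69.5 over the 8 mice and the second between 9.52 and 48.8, with overlapping genotypes and differences of -0.78 (SE 0.74) and -0.51 (SE 0.63) on average in the fit without the filter. The second C1qb probe set gave 191 and 127 in S1/2-/- against 89.7 and 91.6 in WT mice at ZT16 and 67.4 and 70.2 in S1/2-/- against 94.4 and 185 in WT mice at ZT4. Its order reversed between the times, which the bright C1qb probe set did not show. The second Cd68 probe set stayed between 3.38 and 15.0.

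At a single time, the comparison of the genotypes had 7 of 8 genes higher in S1/2-/- cortex at ZT4 (median 0.17, all probe sets -0.0040) and 6 of 8 at ZT16 (median 0.14, all probe sets 0.0063). At ZT4, 5 of 9 probe sets were higher in both S1/2-/- mice than in both WT mice (C1qb, C1qc, Ctss, Tyrobp and the second of Csf1r) and that of Cd68 was lower in both. Of these, the second of Csf1r was nearly level, with nearest signals of 160.4 in S1/2-/- and 159.9 in WT mice. Cd68 was nearly level too, with 310.3 in S1/2-/- and 310.5 in WT mice. Groups without overlap in either direction were found for 39.4% of all tested probe sets at ZT4, 19.5% with the S1/2-/- mice higher. At ZT16, C1qa and Cx3cr1 were higher and Csf1r lower without overlap, 3 of 9 against 42.0% of all tested probe sets, 21.0% with the S1/2-/- mice higher. Over both times the 4 S1/2-/- and 4 WT mice overlapped for all 9 probe sets, as they did for all but 7.18% of those on the array. In limma, the calls were 0 of 9 at ZT4 (0.0939% of the array) and 0 of 9 at ZT16 (0.0134% of the array). An unadjusted p under 0.05 was also reached by 0 of 9 at ZT4 (7.29% of the array) and 0 of 9 at ZT16 (10.9% of the array). The ZT16 median rested on the first WT mouse of that time, since it was -0.05 without it. The ZT4 median was 0.08 without the first WT mouse of ZT4 and 0.31 without the second.

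Between the times, Ctss had the largest average difference upwards and Cd68 the largest downwards, and neither passed the test. The ZT16 mice of both genotypes had a mean Ctss signal of 2471 ± 243 and the ZT4 mice of 2165 ± 270 (SD, n = 4 each), a difference of 0.19 (SE 0.09, limma adjusted p = 0.539). Cd68 averaged 280 ± 53.0 at ZT16 and 316 ± 18.6 at ZT4 (SD, n = 4 each), a difference of -0.19 (SE 0.18, limma adjusted p = 0.750). The differences of the C1q chains between these times were -0.03 for C1qa (95% interval -0.23 to 0.17), -0.05 for C1qb (-0.33 to 0.23) and -0.08 for C1qc (-0.35 to 0.19). Csf1r (0.15), Cx3cr1 (0.18) and Tyrobp (0.11) had higher means at ZT16, and the second Csf1r probe set a lower one (-0.15). In all, 4 of 8 genes were higher and 4 lower at ZT16, with a median of 0.04 against -0.0041 over all tested probe sets. No probe set of the array was called for time averaged over the genotypes (0.0% of 7453, with 9.38% at an unadjusted p under 0.05), and none of the 9 had an unadjusted p under 0.05. The times overlapped for all 9 probe sets, and did not for 5.06% of the array.

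Among the 9 tested probe sets, the lowest p for time within 1 genotype was that of Csf1r in WT cortex, with 1553 and 1778 at ZT16 against 1258 and 1399 at ZT4 (difference 0.32, SE 0.12, 95% interval 0.05 to 0.60, limma, unadjusted p = 0.0255, adjusted p = 0.625). Ctss was also higher in both WT mice of ZT16, so 2 of 9 probe sets did not overlap between the times in WT, against 36.0% of the array (17.9% higher at ZT16). In S1/2-/- cortex, Cx3cr1 alone did not overlap, with 495 and 459 at ZT16 against 323 and 395 at ZT4. This is 1 of 9 probe sets, against 41.4% of the array (21.0% higher at ZT16). In limma, calls were 0 of 9 in S1/2-/- (0.0% of the array) and 0 of 9 in WT mice (0.0134% of the array). An unadjusted p under 0.05 was reached by 0 of 9 in S1/2-/- mice (7.31% of the array) and in WT mice by that of Csf1r alone (7.61% of the array). The change with time differed between S1/2-/- and WT mice by 0.47 for Cx3cr1 (SE 0.42, limma adjusted p = 0.913), by -0.41 for Tyrobp (SE 0.33, limma adjusted p = 0.912) and by -0.34 for Csf1r (SE 0.18, limma adjusted p = 0.875), and 0 of 9 were called (0.0% of the array) or had an unadjusted p under 0.05 (5.69% of the array). Those 3 genes had the largest such differences among the 8, and their 95% intervals all included 0.

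**Figure D2:**
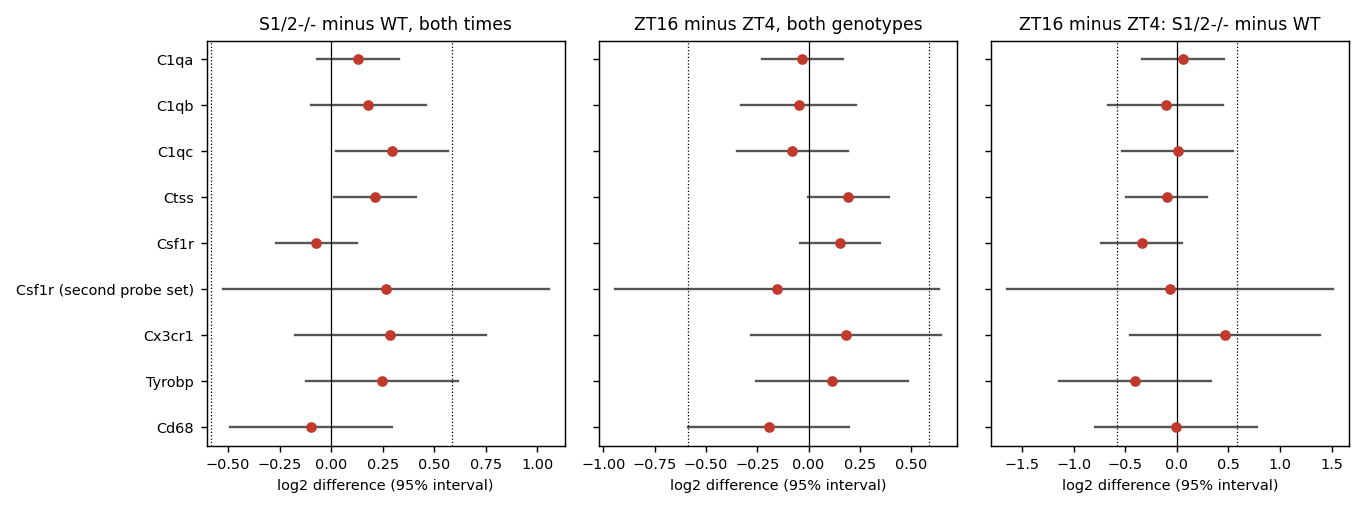
Log2 differences (points) with 95% intervals (lines) of the 9 tested probe sets for S1/2-/- minus WT over both times, ZT16 minus ZT4 over both genotypes, and the time difference in S1/2-/- minus that in WT, each panel with its own axis. Dotted lines mark 1.5-fold: 6 of 9 intervals lie within them in the first panel, 6 in the second and 3 in the third, and the second Csf1r probe set has the widest interval in each.

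The limits of these differences follow from 2 mice per group. For the genotype average, 6 of 9 intervals lay wholly within 1.5-fold in either direction (C1qa, C1qb, C1qc, Ctss, Csf1r and Cd68), so larger changes of these genes lay outside the 95% interval, whereas those of Cx3cr1, Tyrobp and the second Csf1r probe set reached beyond it.

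Mouse by mouse, the 8 genes set 2 WT mice apart. Each gene's log2 signal was expressed in SDs from its own mean over the 8 arrays and averaged over the genes. This mean was 0.26 and 0.38 in the S1/2-/- mice against -0.81 and 0.48 in the WT mice at ZT16, and 0.22 and 0.49 in S1/2-/- against -1.20 and 0.19 in WT mice at ZT4. The first replicate of both WT groups was low, and the other 6 mice, 2 WT mice among them, lay between 0.19 and 0.49. The labels do not say whether the replicate number pairs these mice. In the first WT mouse of ZT4, C1qa, C1qc, Ctss, Csf1r, Cx3cr1 and Tyrobp were all at least 1 SD below their means. In the first WT mouse of ZT16 the lowest genes were C1qa and C1qb. The median genotype difference of 0.20 over the 8 genes was 0.08 without the first WT mouse of ZT4 and 0.11 without that of ZT16.

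**Figure D3:**
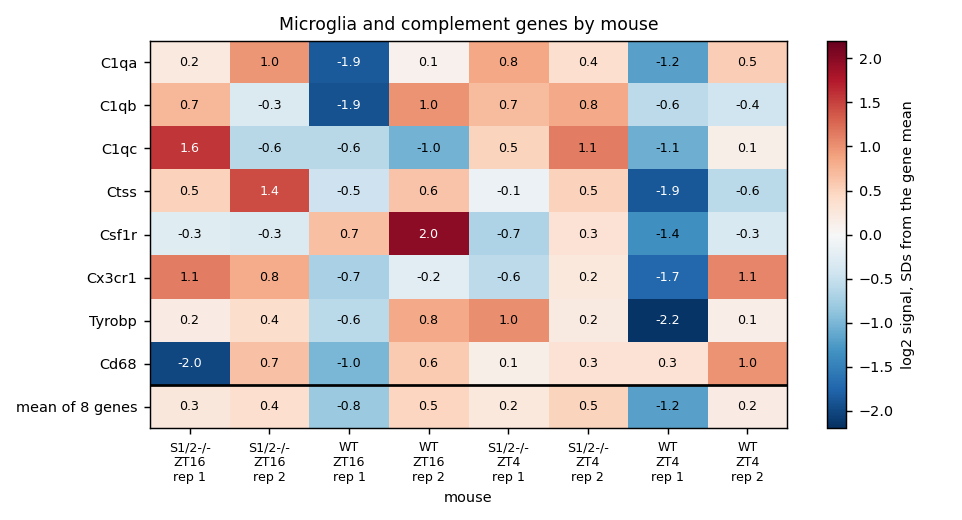
Log2 signal of the 8 tested genes (rows, 1 probe set each) in the 8 mice (columns), in SDs from the mean of each gene over the 8 arrays, with the mean over the 8 genes in the bottom row. The first WT mouse of ZT16 (-0.8) and of ZT4 (-1.2) have the lowest means, and the other 6 columns have means of 0.2 to 0.5.

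The median signal of these 2 arrays was 195 (ZT16) and 188 (ZT4), within the range of all 8. Markers of border macrophages, which share these genes, were dim: Mrc1, Lyve1, Pf4, Ccr2, H2-Aa, H2-Ab1 and Cbr2 lay below the filter and 3 of 10 on the array were tested. The summed signal of these 3 was 434 and 474 in the first WT mice of ZT16 and ZT4. It was 462 in the first S1/2-/- mouse of ZT4 and 565 to 694 in the other 5 mice. Those 2 WT mice gave 63.4 and 44.8 for H2-Eb1, the lowest of the 8, and 107 and 173 for Stab1. Cd74 was not low in them, at 263 and 256 within a range of 199 to 300 over the 8 mice. The part of border macrophages in the low values was not tested.

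Over the 28 pairs of the 8 genes, Pearson's r across the 8 arrays had a median of 0.392 and was positive for 23 pairs. These are descriptions over arrays that share their groups and scaling. The closest pairs were Ctss with Tyrobp (0.763), C1qa with Tyrobp (0.739) and C1qa with C1qb (0.692). C1qc followed its neighbours less closely (0.473 with C1qb and 0.419 with C1qa), and Cd68 was the gene least like the rest, with -0.478 against C1qc. The genes outside the list whose profile was most like the mean of the 8, among 5682 compared over the 8 arrays, were Man1a (r = 0.978), Dbnl (0.977), Ap1g2 (0.960), Wipi2 (0.953) and Chst3 (0.942). Man1a encodes a mannosidase of the Golgi and Dbnl an actin-binding adaptor. Dbnl gave 880 and 874 in S1/2-/- against 696 and 867 in WT mice at ZT16. At ZT4 it gave 826 and 884 in S1/2-/- against 602 and 877 in WT mice. Its low values in the first WT mice follow from its choice by likeness to the mean of the 8 genes. These r are the highest of 5682 over only 8 arrays and carry no test.

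Of 53 further microglia genes, 34 were on the array and 17 were tested. Tmem119, P2ry12 and Trem2, which define microglia well, have no probe set of their own symbol, and Itgam, Ptprc and Spi1 (the gene of PU.1) were below the filter. Averaged over both times, 10 of the 17 were higher and 7 lower in S1/2-/- than in WT cortex, with a median of 0.09 and 0 called. Laptm5, a lysosomal membrane protein of blood cells and microglia, had the lowest p (0.27, SE 0.10, limma adjusted p = 0.307). It gave 830 and 888 in S1/2-/- against 764 and 698 in WT mice at ZT16, and 828 and 793 in S1/2-/- against 680 and 634 in WT mice at ZT4, without overlap over the 8 mice. Such a separation, in either direction, was found for 7.18% of all tested probe sets. The lipopolysaccharide co-receptor Cd14 (0.31) and the exchange factor Vav1 (0.94, SE 0.51) followed, with limma adjusted p of 0.385 and 0.480. Vav1 gave 37.0 in the second WT mouse of ZT16 and 107 to 379 in the other mice. Between the times, 11 of the 17 genes were higher and 6 lower at ZT16 (median 0.08, 0 called). The lowest p were those of Cd14 (0.26), Selplg (0.27), the ligand of P-selectin, and Inpp5d (0.30), the phosphatase SHIP1. The summed signal of the 17 genes was 6976 to 7042 in S1/2-/- against 6366 to 6495 in WT mice at ZT16, and 6352 to 6452 in S1/2-/- against 5905 to 6809 in WT mice at ZT4. In the WT mice of ZT4, the group in which Aif1 was high, this sum was 5905 in the first mouse and 6809 in the second. A link between this sum and Aif1 was not tested.

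Of 35 other complement genes, 23 were on the array and 8 were tested, and the serum components C9, Cfb and Mbl1 were among those below the filter. In the genotype average, 6 were higher and 2 lower in S1/2-/- cortex (median 0.13, 0 called). The lowest p was that of Cd59a, which blocks the membrane attack complex. Cd59a gave 320 and 153 in S1/2-/- against 479 and 639 in WT mice at ZT16, and 250 and 244 in S1/2-/- against 383 and 381 in WT mice at ZT4. All 4 S1/2-/- mice lay below all 4 WT mice (difference -0.98, SE 0.22, limma unadjusted p = 0.00136, adjusted p = 0.141). The genotypes were apart in this way, in either direction, for 7.18% of all tested probe sets. Clusterin (Clu), an inhibitor of the same complex made by astrocytes, gave 8821 and 9113 in S1/2-/- against 8406 and 9474 in WT mice at ZT16, and 10390 and 9218 in S1/2-/- against 7465 and 7587 in WT mice at ZT4 (average 0.19, limma adjusted p = 0.297). C5ar1, the receptor of the C5a fragment, had 0.29 (limma adjusted p = 0.610). Between the times, 5 were higher and 3 lower at ZT16 (median 0.09, 0 called), and vitronectin (Vtn) was lower by -0.34 (limma adjusted p = 0.407), Cr1l, a regulator of C3 activation, by -0.48 (limma adjusted p = 0.601), while Clu differed by 0.06.

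Of the ligands and partners of the receptors, 9 of 10 were on the array and 4 were tested, with 1 higher and 3 lower in S1/2-/- cortex (median -0.12, 0 called). The ligand Csf1 had an average difference of -0.29 between the genotypes (limma adjusted p = 0.607) and of 0.33 between ZT16 and ZT4 (limma adjusted p = 0.635). Cx3cl1, the neuronal ligand of Cx3cr1, ran between 13150 and 14420 over the 8 mice and differed by 0.02 between the times. The receptors Csf3r and Csf2ra had -0.18 and -0.06 between the genotypes, and Csf3r -0.12 between the times. Downstream of Tyrobp and Fcer1g, 10 of 22 genes of ITAM and Fc receptor signalling were tested, 6 higher and 4 lower in S1/2-/- cortex (median 0.04, 0 called). They were led by Fyn (0.28), Pik3cd (0.64, SE 0.38) and Blnk (-0.24). Pik3cd gave 77.4 in the second WT mouse of ZT16 and 212 to 391 in the other mice. Between the times, 6 of the 10 genes were higher and 4 lower at ZT16 (median 0.08, 0 called). The adaptors Lat (0.59) and Lat2 (-0.72) had opposite signs, and Syk, the kinase that binds phosphorylated ITAMs, had -0.41 (SE 0.18, limma adjusted p = 0.515).

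The lysosome is shared by all cell types of the cortex, and its genes were evenly split. Of 38, 29 were tested, 15 higher and 14 lower in S1/2-/- cortex (median 0.0037, 0 called). Cathepsins other than Ctss differed in sign, with Ctsh at 0.44 (limma adjusted p = 0.361), Ctse at -0.35 (limma adjusted p = 0.299) and Ctsz at -0.37 (limma adjusted p = 0.395). Between the times 16 were higher and 13 lower at ZT16 (median 0.01, 0 called), with the lowest p for Psap (0.14), Npc2 (0.28) and Lipa (0.56). Of 26 genes that rise in activated microglia, 5 were tested, and the cytokines Tnf, Il1a, Il1b, Il6 and Ccl2 were below the filter. Of these 5, 2 were higher and 3 lower in S1/2-/- cortex (median -0.02, 0 called), with B2m at -0.23 (limma adjusted p = 0.332), Itgax at 0.56 (limma adjusted p = 0.380) and Lpl at 0.26 (limma adjusted p = 0.695). Between the times 1 was higher and 4 were lower at ZT16 (median -0.14, 0 called).

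**Figure D4:**
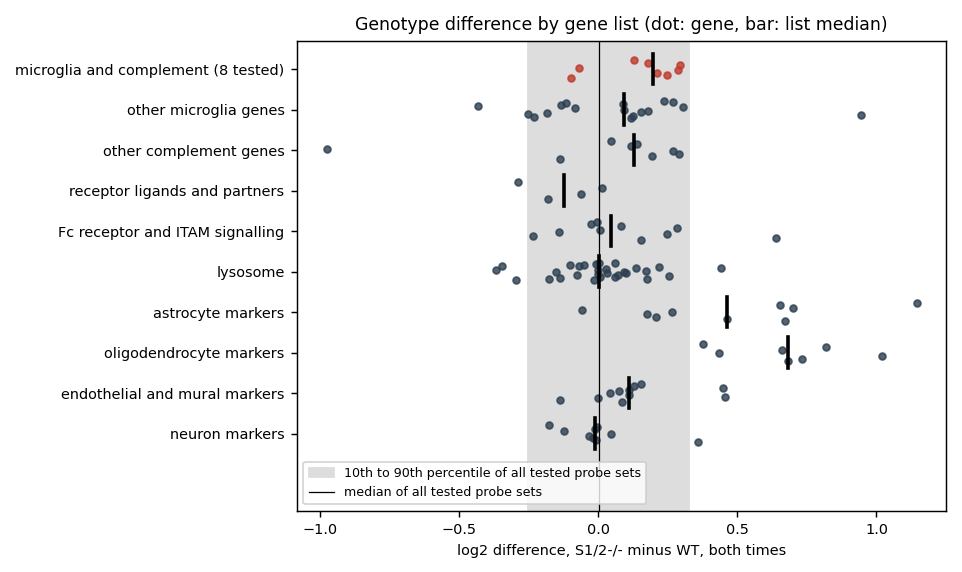
Log2 difference S1/2-/- minus WT over both times for each tested gene (dots) of the 8 microglia and complement genes and of 9 other lists (rows), with list medians as bars, and a grey band from the 10th to the 90th percentile of all tested probe sets. The 8 genes lie within the grey band with a median of 0.20, and the oligodendrocyte and astrocyte markers have medians of 0.68 and 0.46.

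Averaged over both times, some markers of oligodendrocytes and astrocytes were called higher in S1/2-/- cortex, and none of neurons passed the test. On the whole array 0.255% of the tested probe sets were called in either direction in this comparison, and 50.4% were higher. The calls depended on the setting, since 0 probe sets of the array were called without the intensity trend. All 7 tested oligodendrocyte markers were higher in S1/2-/- cortex (median 0.68, 4 called), and their summed signal was 26010 to 28250 in S1/2-/- against 22370 to 22830 in WT mice at ZT16 and 28390 to 29560 in S1/2-/- against 16840 to 18590 in WT mice at ZT4. Of 9 astrocyte markers 8 were higher (median 0.46, 2 called), with sums of 20280 to 20940 in S1/2-/- against 16990 to 20230 in WT mice at ZT16 and 19460 to 21550 in S1/2-/- against 17650 to 17860 in WT mice at ZT4. Of 9 neuron markers 2 were higher and 7 lower (median -0.01, 0 called), with sums of 78450 to 81490 in S1/2-/- against 82900 to 88220 in WT mice at ZT16 and 81210 to 82610 in S1/2-/- against 85550 to 90260 in WT mice at ZT4. Striatal markers (3 tested) summed to 3749 to 4286 in the WT mice of ZT4 and to 6840 to 14290 in the other 6 mice. The 8 microglia and complement genes summed to 8957 to 9079 in S1/2-/- against 7771 to 8980 in WT mice at ZT16, and to 8634 to 9081 in S1/2-/- against 7100 to 8430 in WT mice at ZT4. The part of these other tissues and cells in the differences of the 8 genes was not tested.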

How the data were processed

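RNA of the cortex of 8 mice was hybridised to 1 Affymetrix array each. The authors condensed the probes with MAS5 (version not given in the sources used here) and deposited 1 intensity per probe set on a linear scale. Every array had the same mean after 2% of values were trimmed at each end. The 66 control probe sets were left out, and the 64 signals below 1 were raised to 1 before the log2. Tests were confined to probe sets whose mean log2 signal reached 6.79, the 40th percentile (a signal of 111). In the annotation of the array, 10833 probe sets had 1 symbol, 396 several and 1193 none. A gene with several probe sets is counted by the one with the highest mean.

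The 8 arrays were fitted as 4 group means with limma 3.58.1 in R 4.3.3 with an intensity trend (4 residual and 6.02 prior degrees of freedom), which gave 7 comparisons. Adjusted p are over the 7453 tested probe sets of a comparison, and 95% intervals use the moderated standard errors. The methods name ANOVA for time, which was run as an alternative. The number of arrays limits the precision. The mice were separate animals with 1 array each, so the spread behind the p-values holds differences between animals and between arrays. limma also moderates this spread with that of the other probe sets. The steps were tested on simulated data. There, 34.7% of true 1.5-fold and 83.6% of true 2-fold genotype differences over both times were called.

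The genes and lists were chosen with earlier results of these data known. All probe sets of the 10 genes are named in the comparisons, and of the other lists up to 3 genes with the lowest p for genotype and for time. The lists of other cells and tissues are given mainly by counts, medians or sums. Samples were grouped by their titles. Alternatives were median centring, quantile normalization, no filter or one at the 60th percentile, 16 added to each signal, no trend, ANOVA, only the groups compared, the replicate number as a block, all probe sets of a gene, and each mouse left out.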

Additional observations from a re-analysis of the deposited data

How the results depend on the processing

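None of the 9 probe sets was called under any of the 17 alternatives in any comparison. Of the recomputed differences of both averages, and of the values at a single time named for single genes, 439 kept their direction while 12 reversed, all when 1 mouse was left out. In those cases the lone mouse of a group is assumed to vary like the others. The ranges over mice left out were -0.0897 to 0.62 for the second Csf1r probe set (S1/2-/- against WT), -0.24 to 0.0467 for Cd68 (S1/2-/- against WT), and for ZT16 against ZT4 -0.0832 to 0.0221 for C1qa, -0.18 to 0.0868 for C1qb, -0.20 to 0.046 for C1qc, -0.51 to 0.20 for the second Csf1r probe set, -0.0694 to 0.43 for Cx3cr1 and -0.0475 to 0.27 for Tyrobp. For the difference of the time changes of Cx3cr1 the range was -0.0355 to 0.97. Over all 9 probe sets, leaving out a mouse reversed 2 for the genotype average, 1 for the genotypes at ZT4, 4 at ZT16, 6 for the average of time, 6 for time in S1/2-/-, 6 for time in WT and 7 for the difference of the time changes. Median centring reversed Tyrobp at ZT16 and, for the difference of the time changes, C1qa and C1qc, and quantile normalization C1qa for time in S1/2-/-. The median of the 8 genes ranged from 0.0846 to 0.27 for the genotype average, from 0.08 (without the first WT mouse of ZT4) to 0.31 (without the second) for the genotypes at ZT4, from -0.0453 (without the first WT mouse of ZT16) to 0.25 for the genotypes at ZT16, and from -0.0856 to 0.21 (without the second WT mouse of ZT4) for the times in WT, where it was 0.16 without the first WT mouse of ZT16. Under median centring, 38.1% of all probe sets were higher in the genotype average and the median of the 8 genes was 0.13, with 6 of 8 higher. The 2 probe sets with an unadjusted p under 0.05 in the genotype average were 0 with median centring, 0 without the trend, 0 by ANOVA and 0 to 4 with a mouse left out.

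Counts over all probe sets moved more, and the cause was not tested. The genotype average had 19 calls, with 11 without the filter, 11 with median centring, 0 without the trend, 0 by ANOVA and 0 to 88 with a mouse left out. The genotypes at ZT4 had 7, with 12 at the 60th percentile filter, 11 with median centring, 0 without the trend, 0 by ANOVA, 13 with only the groups compared and 0 to 14 with a mouse left out. The genotypes at ZT16 had 1, with 0 without the filter, 6 at the 60th percentile, 0 without the trend, 0 by ANOVA and 0 to 156 with a mouse left out. ZT16 against ZT4 had 0 calls on average (0 to 36 with a mouse left out), 0 in S1/2-/- (0 to 1) and 1 in WT, with 0 without the filter, 4 at the 60th percentile, 5 with median centring, 0 without the trend, 0 by ANOVA, 2 with only the groups compared and 0 to 100 with a mouse left out. The difference of the time changes had 0 (0 to 17 with a mouse left out). The counts of 88, 156, 36, 100 and 17 came without the first WT mouse of ZT16. With the replicate number as a block the counts were 13 for the genotypes at ZT4, 0 at ZT16, 10 for the times in WT and 2 for the difference. The labels do not say whether the numbers pair the mice, and deviations of same-numbered mice correlated at -0.00135 to 0.0982. Whether same-numbered mice were handled together is not known. The block changed no call of the 9 probe sets. With it, an unadjusted limma p under 0.05 was reached by 1 of them for the genotypes at ZT4, 1 for the average of time and 2 for time in WT.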

Other observations

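Lists of other cells and tissues that a piece of cortex can hold were read in the same fit, and 0 genes of those named here were called. Of 14 genes of endothelial and mural cells 11 were tested, 9 higher and 2 lower in S1/2-/- than in WT cortex (median 0.11), with Rgs5, a pericyte gene, at 0.45 (limma adjusted p = 0.273) and the receptor Flt1 at 0.45 (limma adjusted p = 0.340). Of 13 border macrophage genes 3 were tested, 2 higher and 1 lower (median 0.04). These were H2-Eb1 (0.46), Cd74 (0.04) and Stab1 (-0.02). Of 24 genes of blood cells 7 were tested, 2 higher and 5 lower (median -0.02), and Cd3e, S100a8 and S100a9 lay below the filter. The haemoglobin gene Hba-a1 gave 2515 and 2168 in S1/2-/- against 3651 and 2238 in WT mice at ZT16, and 6204 and 3173 in S1/2-/- against 2442 and 5701 in WT mice at ZT4, so single mice differed more than the genotypes. Of 10 meningeal genes 7 were tested, 2 higher and 5 lower (median -0.05). Of 10 striatal genes 3 were tested and all were higher on average (median 0.51), with 1 higher and 2 lower at ZT16 (median -0.44) and 3 higher at ZT4 (median 1.42). Of 12 choroid plexus genes 2 were tested, 1 higher and 1 lower. The lower one, Ttr, was singled out after its values were seen. It gave 102 and 150 in S1/2-/- against 2582 and 2412 in WT mice at ZT16 (difference -4.33, SE 0.89, limma adjusted p = 0.212), and 1456 and 146 in S1/2-/- against 83.2 and 331 in WT mice at ZT4.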
